A study of Drosophila melanogaster with 2 samples.

Results

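The 7 genes hh, ptc, smo, ci, Su(fu), fu and rdx form the core of the Drosophila Hedgehog pathway and were chosen by symbol from the 13945 protein-coding genes of the major chromosome arms and chromosome 4 (Ensembl annotation). Every binding summit within the span of each gene or 5 kb to either side of it was collected. The data are ChIP-seq peak lists for charlatan, a zinc finger transcription factor encoded by chn. The protein was tagged at its C-terminal end with eGFP in a transgenic fly line and precipitated with an antibody against GFP. There was 1 group, of 2 biological replicates, each made from whole embryos of both sexes collected 0 to 24 h after laying, so all cell types and embryonic stages were mixed and no condition was set against another.

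In the Hedgehog pathway a secreted ligand, hedgehog, binds the membrane protein patched. Without ligand, patched holds the transducer smoothened inactive, and the zinc finger factor cubitus interruptus is cut to a repressor. With ligand, smoothened becomes active and full-length cubitus interruptus turns on target genes, among them ptc itself. The kinase fused, the binding partner Suppressor of fused and the ubiquitin ligase adaptor encoded by rdx (roadkill, also called HIB) act on cubitus interruptus in the cytoplasm and nucleus. In the embryo the pathway maintains segment polarity in the ectoderm.

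Positions are on build dm6. The authors' final list, cut by the irreproducible discovery rate (IDR, which asks whether peaks recur between replicates), held 4537 summits, called thresholded here. The pooled list of both replicates held 30000 summits and reached down to weak signal. The signal is the authors' deposited peak-caller value, is used only to rank peaks within a list, and ran from 71.4 to 1972 in the thresholded set, whose median was 113. Rank 1 is the strongest peak of a list. No read totals come with the lists, the depth is therefore unknown, and an unlisted or weak site cannot be told from an unbound one.

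Binding at these genes was uneven. Of the 7 genes, 4 had a thresholded summit in the span or flanks, namely rdx with 10, ptc with 7, smo with 4 and hh with 1, while ci, Su(fu) and fu had none. A thresholded summit in the span or flanks was thus present at 57.1% of the 7 genes, against 49.3% of all protein-coding genes. A promoter summit here is one no more than 1000 bp from an annotated transcription start site (TSS), and 3 of the 7 genes (42.9%) had a thresholded one, against 24.2% of all protein-coding genes. All 7 had at least a pooled promoter summit, against 60.4% of all. Among genes with a pooled promoter summit, 40% had a thresholded one, which is near the 42.9% of the 7 genes, so the promoter count is not a result about the pathway. With the 1000 strongest peaks the count was 1 of 7, rdx. From the strongest 4537 peaks of replicate 1 alone it was 2, without smo.

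Together the 7 windows held 22 thresholded and 99 pooled summits. The thresholded share of pooled summits was 22.2% in these windows and 15.1% over all summits. The median number of thresholded summits per window was 1 for the 7 genes and 0 for all protein-coding genes, and the median gene span was 9.33 kb and 2.17 kb, so the windows of the 7 genes were longer.

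**Figure D1:**
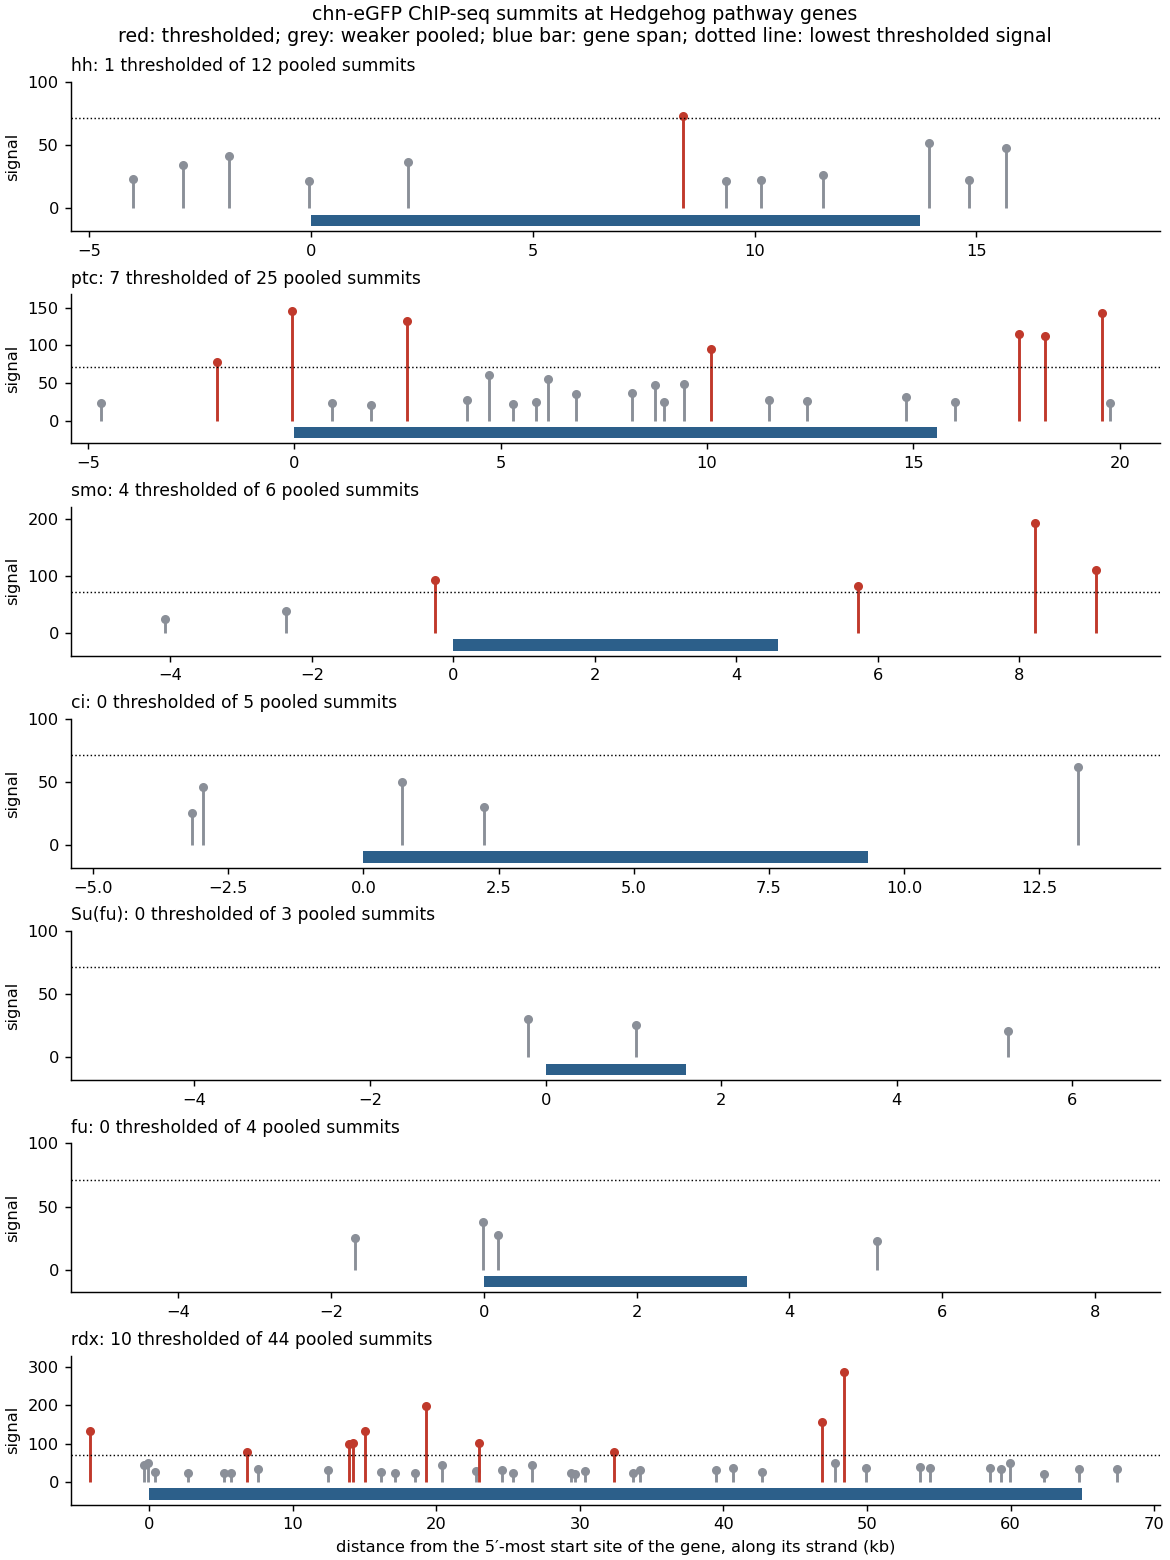
Signal of each summit in the pooled list (vertical axis, linear) against its distance in kb from the 5′-most TSS along the gene's strand, for 7 genes. Red stems are thresholded summits and grey stems are weaker pooled ones, blue bars mark gene spans, and the dotted line is the lowest thresholded signal of 71.4. The rdx panel holds 10 red stems and the ptc panel 7, and the panels of ci, Su(fu) and fu hold none.

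The ligand gene hh (FBgn0004644, chr3R:23128169-23141906, minus strand) had 1 thresholded summit, and it lay in the first intron. The peak (chr3R:23133312-23133711) had its summit at 23133512, 8394 bp downstream of the TSS of hh and 5531 bp from the nearest coding TSS, that of CG31457. Its signal of 73.0 ranked 4418 of 4537, close to the lowest thresholded signal of 71.4. The overlapping peak had a signal of 30.6 and rank 7347 in replicate 1, and a signal of 35.4 and rank 3842 in replicate 2. Only replicate 2 therefore placed this site among its strongest 4537.

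The promoter of hh had weak signal only. Its only pooled summit within 1000 bp of the TSS, 34 bp upstream, had a signal of 21.4 and rank 27971, and 58.9% of all protein-coding genes had a stronger promoter summit. The other 10 pooled summits of the window had signals from 21.3 to 51.9. Of these, the summit with the highest signal lay at the TSS of the downstream neighbour CG31457. It overlapped a peak of rank 4477 in replicate 1 and of rank 17786 in replicate 2. A count from replicate 1 alone therefore gives hh 1 strong summit too, but at this neighbour.

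The sequence of the intronic hh site is shown because it is the sole thresholded site of the ligand gene. The window reaches 100 bp to each side of the summit, reads 5′ to 3′ along the strand of the gene, and comes from the Release 6 genome. It holds none of the 9 motifs searched, which are described with the motif counts, and so has no capitals. Its GC content was 32.8%, the lowest of the 22 windows.
hh intron 1, chr3R:23133412-23133612, minus strand: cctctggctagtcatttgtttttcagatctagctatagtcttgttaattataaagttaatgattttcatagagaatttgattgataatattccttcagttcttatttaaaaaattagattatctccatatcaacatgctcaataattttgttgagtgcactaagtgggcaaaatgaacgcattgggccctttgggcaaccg

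The receptor gene ptc (FBgn0003892, chr2R:8649649-8665223, plus strand) had 7 thresholded summits, spread from upstream of the promoter to beyond the 3′ end. As many or more were found for 50 genes, or 0.359% of all, and for 0.934% of the 964 genes with a span of 10 to 20 kb, whose median was 1. Within the span alone the count for ptc was 2, which 3.82% of all protein-coding genes reached or passed. Those genes were not matched in span, with a median of 2.17 kb against 15.6 kb for ptc. The strongest of the 7 lay at the promoter (chr2R:8649406-8649805), 43 bp upstream of the only TSS of the gene, with a signal of 146 and rank 1514. No other TSS lay within 1000 bp of it. A stronger promoter summit was present at 10.1% of all protein-coding genes. The replicates placed the promoter differently, with a signal of 104 and rank 1020 in replicate 1, and a signal of 41.4 and rank 3016 in replicate 2. Its lead was small, since the summit 3989 bp beyond the gene had a pooled signal of 143. That summit was below the promoter in replicate 1, with a signal of 93.2, and above it in replicate 2, with 86.7.

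The other ptc summits fell into 3 positions. An intergenic summit 1868 bp upstream of the TSS had a signal of 77.5 and rank 4071. Within the gene 2 summits lay in the first intron, 2743 bp and 10106 bp downstream of the TSS, with signals of 132 and 95.8. The first of these was 896 bp from the start of the noncoding gene lncRNA:CR44281. The remaining 3 lay 1994, 2624 and 3989 bp beyond the 3′ end of ptc, with signals of 114.9, 112 and 143. These 3 were in an intron of the next gene, Acsl (an acyl-CoA synthetase gene), whose TSSs were nearer to them than that of ptc, so they cannot be assigned to ptc. Of the 7 summits, 3 had ptc as the nearest coding TSS, and 2 lay within the gene itself.

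The replicates gave the ptc sites outside the promoter more similar ranks. The intronic summit 2743 bp from the TSS ranked 1920 in replicate 1 and 1723 in replicate 2. The summit 3989 bp beyond the gene had the rank 1247 in replicate 1 and 789 in replicate 2. The upstream intergenic site ranked 5356 in replicate 1 and 3752 in replicate 2, so it was among the strongest 4537 only in replicate 2. No sequence of the ptc locus is shown.

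The transducer gene smo (FBgn0003444, chr2L:277582-282167, plus strand) had 4 thresholded summits in its window and none within the gene. All 4 were promoter summits, and for each the nearest coding TSS was that of another gene. The summit nearest to smo (chr2L:277120-277519) was 262 bp upstream of its only TSS and 108 bp from a TSS of CG17078, which is transcribed from the opposite strand. It had a signal of 93.4 and rank 3058. Its peak had a signal of 40.0 and rank 4964 in replicate 1, and a signal of 58.9 and rank 1701 in replicate 2. Replicate 1 also listed the peak, but outside its strongest 4537. At that cut the promoter call of smo was therefore lost without replicate 2.

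Downstream of smo, the summits marked neighbouring promoters. The strongest of the 4 (chr2L:285608-286007) lay 3641 bp beyond the gene and 82 bp from a TSS of CG3625, with a signal of 192 and rank 859. A further CG3625 summit 852 bp away, 129 bp from a TSS, had a signal of 109.7 (chr2L:286460-286859, rank 2387). The summit 1139 bp beyond the gene, 37 bp from a TSS of CG11601, had a signal of 83.0 and rank 3691. Windows of at least 4 thresholded summits were found at 3% of the 2363 genes with a span of 3 to 6 kb, whose median was 1. With flanks of 2 kb the count for smo was 2, and within the span alone it was 0.

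The stretch upstream of CG11601 is shown because its summit lay nearest to a listed motif among the smo sites. It leaves out the UTR bases on both sides and reads along the strand of smo. The capitals mark ATCGATA and CAGCTG.
smo 3′ flank, chr2L:283270-283384, plus strand: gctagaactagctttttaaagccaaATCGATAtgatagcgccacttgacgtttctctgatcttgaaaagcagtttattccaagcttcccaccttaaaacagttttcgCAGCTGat

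At fu, Su(fu) and ci the lists held weak pooled summits only. For fu (FBgn0001079, chrX:18657755-18661204, plus strand), a serine/threonine kinase gene, the strongest of 4 pooled summits lay 12 bp upstream of the TSS. It had a signal of 37.4 and rank 11350. The overlapping peak had a signal of 13.2 and rank 28363 in replicate 1, and a signal of 24.6 and rank 6627 in replicate 2. A TSS of CG6659 lay 457 bp away. The nearest thresholded summit was 11854 bp from the gene, closest to Rip11.

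Su(fu) (FBgn0005355, chr3R:12689873-12691468, minus strand) had the fewest pooled summits of the 7, with 3, in the shortest window, of 11.6 kb. Per 10 kb of window it had 2.59 pooled summits, against 2.59 for ci and 2.97 for fu. The 3 summits had signals of 21.2, 25.8 and 30.7, and the strongest ranked 15593, 203 bp upstream of the TSS. None of the 3 overlapped a peak of the replicate 1 list, and all 3 overlapped one of replicate 2, at ranks of 15651 to 22075. TSSs of Arp1 and CG31347 lay within 1000 bp of the strongest, and the nearest thresholded summit was 26797 bp from the gene.

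The transcription factor gene ci (FBgn0004859, chr4:47710-57041, minus strand) had 5 pooled summits. The one at its promoter, at the base of an internal TSS, had a signal of 50.1 and rank 7425, and 33.7% of all protein-coding genes had a stronger promoter summit. The overlapping peaks had rank 7920 in replicate 1 and 11197 in replicate 2. The strongest summit of the window, with a signal of 62.0, lay downstream of ci at 38 bp from a TSS of PlexB. Its peak ranked 8851 in replicate 1 and 4028 in replicate 2, so from replicate 2 alone ci would have 1 strong summit. Chromosome 4, which carries ci, held 12 thresholded summits, which were 10.4% of its pooled ones, and the nearest to ci was 350.0 kb away, closest to dati.

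The gene rdx (FBgn0264493, chr3R:13967061-14032057, minus strand) encodes a BTB-domain adaptor that directs cubitus interruptus to a Cullin 3 ubiquitin ligase, and its own transcription is raised by Hedgehog signalling. It is the longest of the 7, at 65.0 kb, and had 10 thresholded and 44 pooled summits in its window. As many or more thresholded summits were found for 11 protein-coding genes, or 0.0789% of all, rdx included. Among the 174 genes with a span of 50 to 80 kb the share was 2.3% (4 genes), and the median was 2 thresholded summits.

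**Figure D2:**
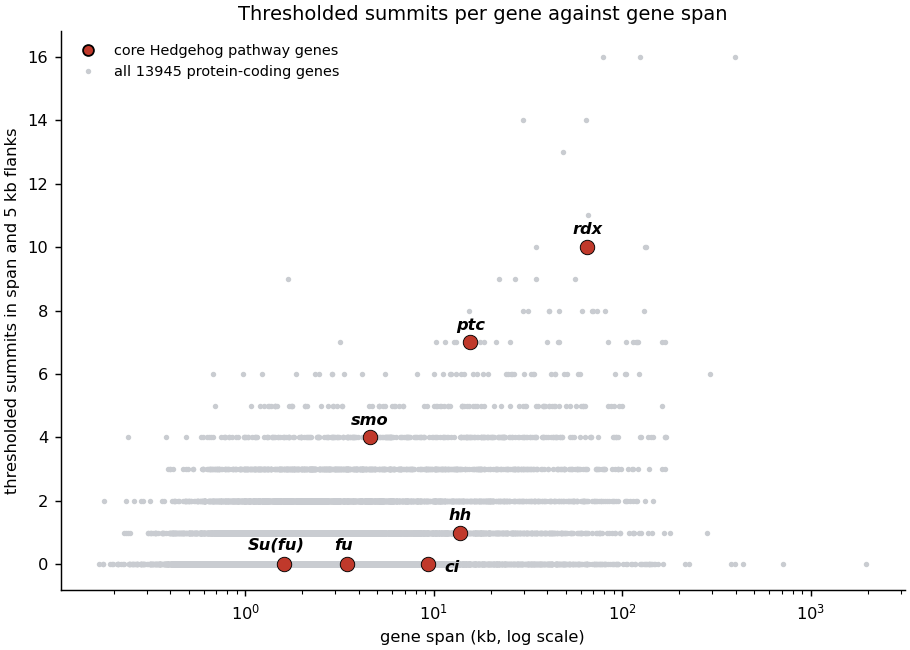
Number of thresholded summits in the gene span and 5 kb flanks (vertical axis) against gene span in kb (log scale) for all 13945 protein-coding genes (grey) and 7 Hedgehog pathway genes (red). The point of rdx lies at 10 and that of ptc at 7, while ci, Su(fu) and fu lie at 0.

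The strongest rdx site lay at an internal promoter. Its peak (chr3R:13983611-13983795) was 185 bp wide and had its summit 318 bp upstream of the TSS at 13983363, which is also within the second intron of 2 of the 5 transcripts. The signal of 286 ranked 369, and 2.92% of all protein-coding genes had a stronger promoter summit. The replicates placed it alike, with a signal of 158 and rank 407 in replicate 1, and a signal of 129 and rank 339 in replicate 2. No TSS of another gene lay within 1000 bp.

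The 4 TSSs of rdx differed in signal. At the TSS at 14025962 a thresholded summit lay 715 bp downstream, with a signal of 79.5 and rank 3932. At the 5′-most TSS, at 14032057, a pooled summit 36 bp upstream had a signal of 49.8 and rank 7490, and a TSS of CG3061 was 278 bp from it. At the TSS at 13971800 a pooled summit 322 bp upstream had a signal of 49.2 and rank 7617. The internal promoter at 13983363 was thus the strongest by this value.

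Most other rdx sites were intronic. A second summit near the internal promoter, 1827 bp upstream of its TSS, had a signal of 156 and rank 1338, and ranked 1410 in replicate 1 and 1306 in replicate 2. The second strongest rdx site lay 13210 bp downstream of the TSS at 14025962, with a signal of 197 and rank 829. Its peak had a signal of 141 and rank 508 in replicate 1, and a signal of 59.4 and rank 1687 in replicate 2. A cluster of 3 summits 7856, 8106 and 8978 bp downstream of the same TSS had signals of 98.5, 100.8 and 134. The first 2 of these are 250 bp apart. They shared the strongest overlapping peak in each replicate, at rank 3286 in replicate 1 and 2065 in replicate 2. Each replicate list also held a peak within 100 bp of each summit, so these ranks do not separate the 2 sites. The weakest intronic site, 16338 bp upstream of the TSS at 13983363, had a signal of 77.4, and the site 16873 bp downstream of the TSS at 14025962 had one of 101.2. The tenth summit, 4127 bp upstream of the gene, was 166 bp from a TSS of CG9922 and had a signal of 133.

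The windows of 4 rdx sites are shown, since they are the 3 strongest rdx sites and the one with the most motif matches. Each reaches 100 bp to both sides of the summit and reads along the strand of rdx. Capitals mark matches to the listed motifs, here ATCGATA on the opposite strand in the second window, and the GAGA repeat and CTCGCTC in the fourth.
rdx internal promoter, chr3R:13983581-13983781, minus strand: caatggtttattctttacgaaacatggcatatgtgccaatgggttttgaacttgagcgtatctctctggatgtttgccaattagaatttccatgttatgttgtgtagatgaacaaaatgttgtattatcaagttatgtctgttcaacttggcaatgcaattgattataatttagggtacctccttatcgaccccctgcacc
rdx upstream of the internal promoter, chr3R:13985090-13985290, minus strand: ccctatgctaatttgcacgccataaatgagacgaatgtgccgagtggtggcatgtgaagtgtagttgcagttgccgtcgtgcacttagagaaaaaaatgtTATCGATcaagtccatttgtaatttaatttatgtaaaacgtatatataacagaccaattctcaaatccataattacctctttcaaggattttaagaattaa
rdx second strongest site, chr3R:14012652-14012852, minus strand: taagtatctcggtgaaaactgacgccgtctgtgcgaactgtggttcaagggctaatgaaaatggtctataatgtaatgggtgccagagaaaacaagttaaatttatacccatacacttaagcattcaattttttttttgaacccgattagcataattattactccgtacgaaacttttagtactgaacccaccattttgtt
rdx intronic cluster, chr3R:14017756-14017956, minus strand: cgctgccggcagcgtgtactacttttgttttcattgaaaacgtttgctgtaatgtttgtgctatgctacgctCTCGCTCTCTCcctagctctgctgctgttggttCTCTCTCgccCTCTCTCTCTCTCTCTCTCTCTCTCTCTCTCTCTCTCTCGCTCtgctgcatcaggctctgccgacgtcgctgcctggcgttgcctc

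Every one of the 22 thresholded summits overlapped a peak in both replicate lists. This was nearly set in advance, since the pooled list was made from these same replicates and each replicate list held 30000 peaks. Both overlapping peaks ranked within the strongest 4537 of their list for 18 of the 22 (81.8%), against 78.5% of all 4537 thresholded summits. The exceptions were the hh intron, the site upstream of ptc, the smo promoter and the weakest rdx site, each outside the strongest 4537 of replicate 1 only. The median ratio of the larger to the smaller replicate rank was 1.40 for the 22 and 1.39 for all. The widest ratio was 3.32, at the second strongest rdx site, which 2.80% of all thresholded summits reached or passed. The ratios of the ptc promoter (2.96) and the smo promoter (2.92) were reached by 4.28% and 4.61% of them. The promoter of ptc and the rdx site were stronger in rank in replicate 1, and the promoter of smo in replicate 2.

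**Figure D3:**
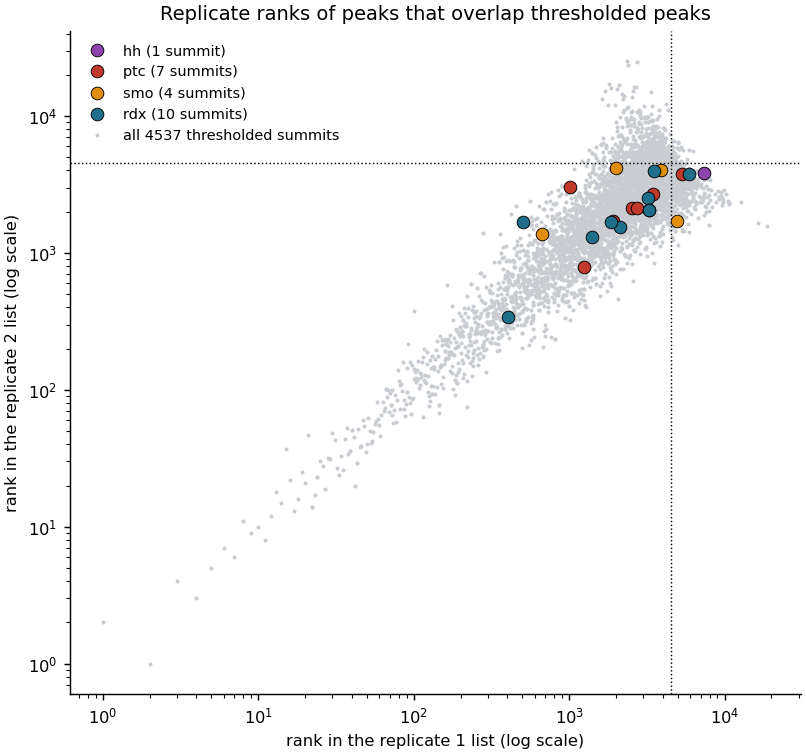
Rank of the strongest overlapping peak in the replicate 1 list (horizontal axis) and in the replicate 2 list (vertical axis), both on log scales, for the thresholded summits of rdx, ptc, smo and hh (coloured) and for all 4537 (grey). Dotted lines mark rank 4537. The hh point lies at rank 7347 in replicate 1 and 3842 in replicate 2.

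The 22 summits were near the middle of the thresholded set in strength. Their median signal was 111, against 113 for all, and 10 of the 22 were above the median of all. Of the 22, 3 (13.6%) were among the 1000 strongest peaks, namely 2 rdx sites and the CG3625 promoter beside smo, against 22.0% of all. In location 14 were intronic (63.6%), 7 at promoters (31.8%) and 1 intergenic, against 31.0%, 51.7% and 13.8% of all thresholded summits. The intronic count comes from rdx with 8, ptc with 5 and hh with 1, and 3 of the 5 at ptc lay in Acsl. None lay in a coding exon or a UTR outside promoters. For 12 of the 22 the nearest coding TSS was that of the pathway gene, 9 at rdx and 3 at ptc, and for the other 10 it belonged to a neighbour.

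Windows reaching 100 bp to each side of the summits were searched on both strands for 9 motifs. Earlier work on these same peaks had picked 6 of them, the words ACAGTGG and also CACAGTG, the words ATCGATA and also ACAGCTG, and the words AGTGTTG and also CTCGCTC. The others were the E-box CAGCTG (a part of the word ACAGCTG), the repeat word GAGAGAG, and the word TGGGTGGTC, the consensus site of cubitus interruptus and its vertebrate GLI relatives. At least 1 motif was present in 6 of the 22 windows (27.3%), against 42.7% of all thresholded windows and 28.5% of weaker pooled windows. With 50 bp to each side the count was again 6 of 22 (27.3%), against 22.1% of all thresholded windows, so the side of the background on which the sites lay turned with the window. ATCGATA, part of the DNA replication-related element, was in 3 windows (13.6%) against 9.83% of all, namely the smo promoter, the CG11601 promoter and the rdx site 1827 bp upstream of the internal TSS, where it lay 3 bp from the summit. GAGAGAG was in 2 windows (9.09%) against 6.48% of all, at the ptc promoter and in the rdx intronic cluster. CAGCTG was in 2 (11.3% of all), and ACAGCTG and CTCGCTC in 1 each (7.38% and 5.33% of all). The words ACAGTGG and also CACAGTG and AGTGTTG were in none of the 22, and were in 9.30%, 8.35% and 7.71% of all thresholded windows. With 22 windows such counts describe these sites only.

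None of the 22 windows held the site TGGGTGGTC, which was in 0.110% of all thresholded windows and 0.157% of weaker pooled ones. Searched over the whole windows of the genes, it matched 6 times, 4 at ptc and 1 each at hh and smo, or 3.27 per 100 kb against 0.900 per 100 kb over the chromosome arms (1205 matches). At ptc 3 matches were grouped 631, 697 and 754 bp upstream of the TSS, and the nearest summit, at the promoter, lay 588 to 711 bp away from them. The fourth was in the gene, 570 bp from a pooled summit of signal 36.1 and 2501 bp from the nearest thresholded summit. The smo match was 645 bp from the promoter summit. The hh match, 2436 bp downstream of the TSS, was 257 bp from a pooled summit of signal 36.8 and 5958 bp from the thresholded one. Matches to these letters are descriptions and not measured sites.

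Beyond the 7 genes, 38 other genes that act in or on the pathway were listed by role. Of these, 14 (36.8%) had a thresholded promoter summit, against 24.2% of all protein-coding genes. Among the 35 with a pooled promoter summit the share was 40.0%, against 40% of all protein-coding genes with one, so this count is not a result about the pathway either. Genes of ligand release and spread had 4 of 9. They were ttv, which encodes a heparan sulphate polymerase (signal 167, rank 1178, chr2R:14526318-14526717), dlp, encoding a glypican (signal 145, rank 1522, chr3L:14632261-14632660), sotv, a partner of ttv (signal 120.1, rank 2058), and disp, which encodes the protein that releases the lipid-modified ligand (signal 76.0, rank 4181). The disp summit was nearer to a TSS of ECSIT, at 72 bp, than to that of disp, at 202 bp, and the dlp summit had a TSS of RecQ5 384 bp away. At reception 1 of 5 was bound, the kinase gene Gprk2 (signal 1265, rank 8). This summit lay 584 bp from the TSS of Gprk2 and 79 bp from that of PNPase. Within 500 bp of a TSS none of the 5 was bound, and within 2000 bp 4 were, with ihog, boi and Smurf added. Within 1000 bp the coreceptor genes ihog and boi had promoter signals of 29.8 and 58.6, below the threshold.

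The intracellular genes had the most, 8 of 15 (53.3%). The share was 24.2% of all protein-coding genes and 40% of those with a pooled promoter summit. The second share is not matched to the 15, since dbr had no pooled promoter summit. With so few genes per role, the differences between roles are descriptions only. With the 1000 strongest peaks 4 of the 15 intracellular genes were bound, against 7.17% of all. The strongest was gish, a casein kinase I gene, with a signal of 689 and rank 51 at 136 bp from an internal TSS (rank 48 in replicate 1 and 54 in replicate 2). It was followed by sgg, the glycogen synthase kinase 3 gene, with a signal of 375 and rank 200 (184 in replicate 1 and 203 in replicate 2), and by SkpA, a subunit gene of the SCF ubiquitin ligase, with a signal of 349 and rank 232. The SkpA summit was 986 bp from its TSS and 190 bp from that of Hmt4-20. The others were nej, mts, wdb, CkIalpha and slmb, with signals from 106 to 207, of which the mts summit was 10 bp from a TSS of Rack1 and the slmb summit 29 bp from one of CG5793. The scaffold gene cos and the kinase gene Pka-C1 were below the threshold, with signals of 35.9 and 38.5. Among targets of the pathway and regulators of hh 1 of 9 was bound, rho, with a signal of 75.7 and rank 4203 at 744 bp from a TSS. This call was lost within 500 bp of a TSS and, like that of disp, without replicate 1. The promoters of dpp, wg, en, inv, kn, ara, caup and eya had pooled summits with signals from 33.2 to 62.4. These counts were not tested, since the genes were listed with earlier results of these data known.

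**Figure D4:**
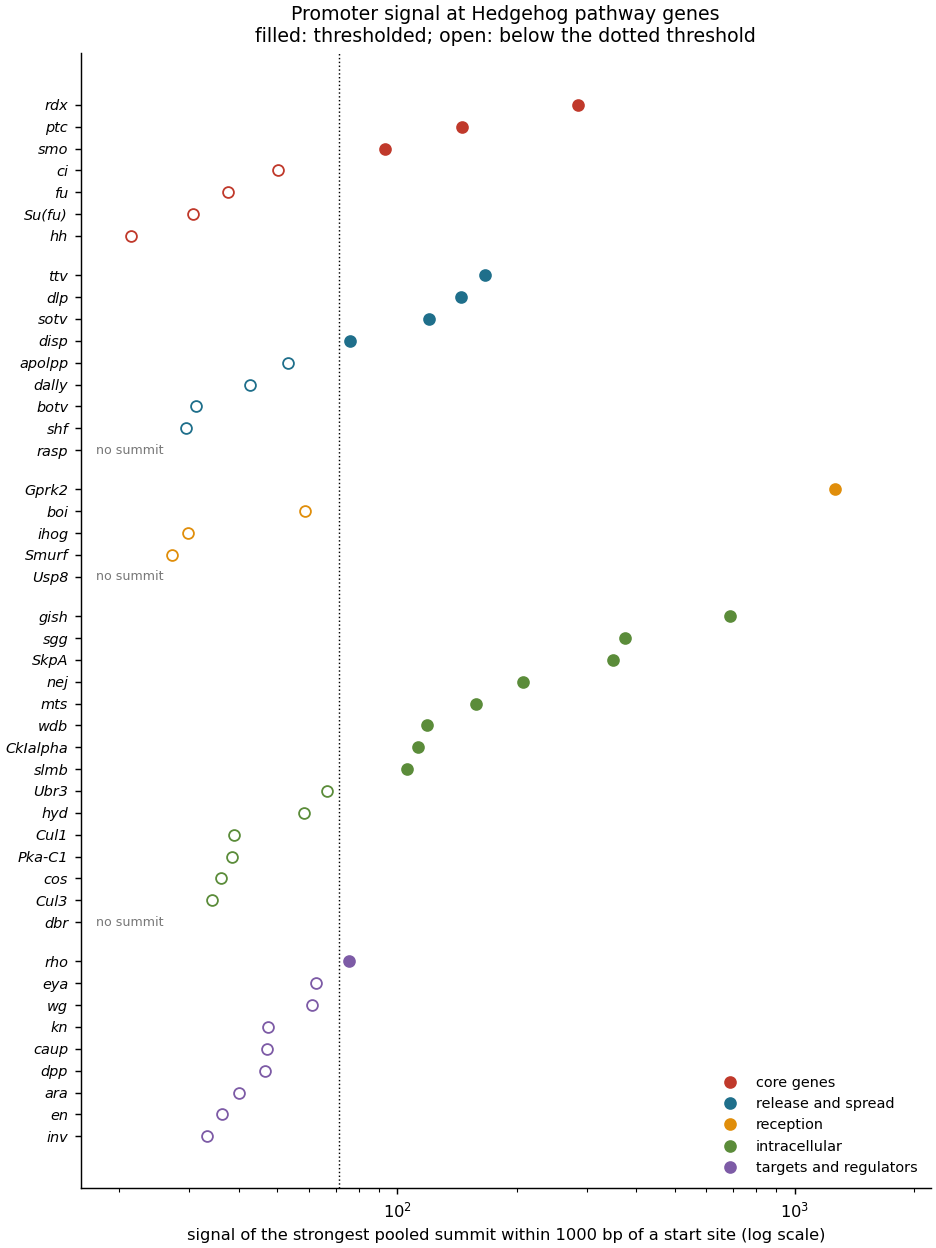
Signal of the strongest pooled summit within 1000 bp of a TSS (horizontal axis, log scale) for 7 core Hedgehog pathway genes and, below them, 38 other genes by role. Filled points are thresholded, open points lie below the dotted line at 71.4, and 3 genes (rasp, Usp8 and dbr) had no pooled summit there.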

How the data were processed

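Per the labels, chromatin of whole embryos (0 to 24 h) was sonicated to 200 to 800 bp and precipitated with an antibody against GFP, in 2 biological replicates. Inventory files deposited with the lists say that each replicate alignment and the pool of both went through peak calling with a control, and that the IDR set came from the resulting lists. Which aligner and peak caller were used is not given in the sources used here, and the control was not analysed here. The authors' deposited lists give a signal per peak, with no word on scaling to depth, and the −log10 of its q-value, which saturated at 3.89 and was not used to rank.

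The thresholded dm6 set equalled the 4537 strongest peaks of the pooled list. Summits (start plus offset, written 1-based) were annotated with the Ensembl annotation without transposable elements, on the Release 6 genome, whose chromosome lengths exceeded the largest peak ends. Each summit got 1 location: promoter (within 500 bp of a coding TSS) came before exon classes, and these before intron and intergenic. Replicate peaks were matched by an overlap of at least 1 bp. The dm3 lists were not used.

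There was 1 group and no contrast, so no test was made, and counts stand beside the same counts over all protein-coding genes. The genes, lists, motifs and gene-span groups were chosen with earlier results of these data known. All 7 genes were named, as were the other pathway genes bound at a promoter. Names beyond these (ihog, boi, Smurf, cos, Pka-C1, Cul1, hyd, Ubr3, dally, the targets and the genes with no summit) were added after their values were seen. The counting was tested on simulated data. Python 3.11.15, numpy 2.4.6, pandas 2.3.3 and matplotlib 3.10.9 were used.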

Additional observations from a re-analysis of the deposited data

How the results depend on the processing

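Of 26 alternative values of the main counts, 21 were within 1.5 times the reported count. The setting that changed only the background, to genes with a pooled promoter summit, repeats the reported count by construction. The stricter set of the 1000 strongest peaks moved 4: 1 of the 7 genes was bound at a promoter (7.17% of all protein-coding genes), 5 of the 38 other genes were, 2 of the 7 had a summit in the span or flanks (17.9% of all), and 3 summits were left, the last by construction. Counting the gene spans alone gave 12 summits. Leaving out a replicate gave 2 to 3 genes bound at a promoter, 13 to 15 of the other genes, 4 to 5 genes with a summit in the window, and 20 to 25 summits. The promoter call of smo was lost without replicate 2, and ci gained a summit, at PlexB, without replicate 1, which also lost the calls of disp and rho and gained that of Cul1. Without replicate 2 hyd was gained. Distances of 500 and 2000 bp from a TSS left ptc, smo and rdx bound. Of the other genes, 11 were bound at 500 bp, without Gprk2, SkpA and rho, and 19 at 2000 bp, with ihog, boi, Smurf, Ubr3 and dpp. All 22 summits were matched in both replicates under each of 3 matching rules, which pooling the same replicates made likely beforehand. With 50 bp to each side 6 windows (27.3%) held a motif too, now above the 22.1% of all thresholded windows, against 42.7% with 100 bp. No paired analysis was possible because there is 1 group and no contrast. The depth is unknown, so the weak signal at fu, Su(fu) and ci limits what their lists can show.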

Other observations

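Several pathway genes without a thresholded promoter summit had thresholded summits elsewhere in the span or 5 kb flanks. The transcription factor gene kn (knot, a Hedgehog target in the wing) had 4 among 16 pooled ones, with a promoter signal of 47.4. The 706 protein-coding genes with a span of 20 to 50 kb, as kn has, had a median of 1 thresholded summit. The ubiquitin ligase gene Ubr3 had 4 among 12, with a promoter signal of 66.8 and rank 5001, where the median of genes with a span of 10 to 20 kb was 1. A TSS of RpS14b lay 736 bp from the Ubr3 promoter summit. Whether the thresholded summits in the windows of kn and Ubr3 lay nearer to neighbouring genes was not determined. The glypican gene dally had 2 among 33, which equals the median of 2 for genes with a span of 50 to 80 kb. Of the 38 other pathway genes, 29 (76.3%) had a thresholded summit in this wider window, against 49.3% of all protein-coding genes, whose spans were not matched to those of the 38. Of the 9 targets and regulators, 4 had a thresholded summit in this window. None was found for en and inv, which encode homeodomain factors that act upstream of hh, among 10 and 16 pooled summits. The same was true of ara, caup and eya, among 12, 9 and 19 pooled summits. Both kn and dally differed between the replicates at the promoter, with ranks of 23418 and 9897 in replicate 1 and 4688 and 4736 in replicate 2. None of these values was tested.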
